A study of Mus musculus with 24 samples.

Results

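Small nucleolar RNA genes were examined in the hippocampus of mice given an HDAC inhibitor, a PDE5 inhibitor or both. A gene was taken as a member when a probe set (a group of probes read as 1 value) was annotated to that gene alone and its symbol began with Snora or Snord. For genes with several such probe sets, only the brightest on average was taken. This gave 73 genes out of 22180 genes with a probe set of their own, 26 of them Snora and 47 Snord genes. A further 43 probe sets named a Snora or Snord gene together with other genes and were left out. All 73 members passed the filter on low values, which required a log2 intensity above 4 in at least 2 arrays of each treatment group and left 19761 genes to be tested.

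Small nucleolar RNAs are short non-coding RNAs that guide the chemical modification of ribosomal and spliceosomal RNA. Snord genes encode the C/D class, which directs 2′-O-methylation of the ribose, and Snora genes encode the H/ACA class, which directs the conversion of uridine to pseudouridine. A few members of both classes act instead in other steps of ribosomal RNA maturation, such as the cutting of its precursor. In mammals most of these RNAs lie in introns of host genes, many of which encode ribosomal proteins or are non-coding RNAs, and are released from the spliced intron and protected by a set of bound proteins.

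The mice were aged female Tg2576 animals, which express human amyloid precursor protein with the Swedish mutation under the prion promoter, and every group carried this transgene, so there were no wild-type arrays. Vehicle (labelled saline, although the study's methods describe a DMSO solution) was given to 7 mice, SAHA (vorinostat, an HDAC inhibitor) to 3, Tadalafil (a PDE5 inhibitor) to 3, SAHA and Tadalafil together to 7 and CM-414, a compound known here by its code name only, to 4. Treatment lasted 4 weeks and was followed by 4 weeks without drug. The labels give an age of 16 to 18 months and the strain B6.Cg-Tg(APPswe)E1-2Dbo/J, whereas the study's methods give another background and a lower age at the start of treatment. Each array was labelled as a biological replica and held RNA of 1 dissected hippocampus sample.

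Between 84.3 and 85.7% of the probe sets of each array exceeded 4 on the log2 scale. Hippocampal markers were present in all arrays, but vehicle 3 and CM-414 3 stood apart, with thalamus marker means of 9.08 and 9.41. The median of that mean over the 24 arrays was 7.39, and the counts of members were also computed without these 2 arrays. The labels of the vehicle and the SAHA and Tadalafil groups number their mice from 1 to 7. Earlier results of these data had shown that Snord13 divides each of these groups between replicas 1–3 and replicas 4–7, and the labels do not say what, if anything, the 2 ranges of numbers stand for. The study's methods mention array batches, and fewer mice per group than vehicle and SAHA and Tadalafil have here, without tying either to replica numbers. The p-values on this division therefore give the size of a difference against the spread between arrays and are not independent evidence of it.

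The members had a median log2 intensity of 7.98, against 6.77 for all genes tested, and their means ran from 4.32 for Snord85 to 12.78 for Snora33. The median was 7.44 in the 26 Snora genes and 8.33 in the 47 Snord genes. Intensities of different probe sets depend on the probes, so these levels do not rank the amounts of the RNAs. Of the 73 members, 15 had a mean above 10 and 14 a mean below 6. They varied more between arrays than genes at large, with a median SD over the 24 arrays of 0.31 against 0.17, and 20.5% of them had an SD above 0.5, against 1.37% of all genes tested. The most stable member was Snora33, with an SD of 0.14, and the most variable was Snord13, whose SD of 1.55 was the highest of all 19761 genes. Snora33 had a second probe set at a mean of 6.31, far below the 12.78 of the one used. Both probe sets of Snora19 held identical values in all 24 arrays and gave 1 value.

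Snord13 encodes U13, a C/D RNA that pairs with the small subunit rRNA and is needed for its acetylation, and unlike most of the class it is transcribed from a promoter of its own. Its log2 intensity was 7.30, 7.73 and 8.39 in vehicle replicas 1–3 and 10.35, 11.15, 10.72 and 10.63 in vehicle replicas 4–7. In the SAHA and Tadalafil group it was 7.87, 8.27 and 7.65 in replicas 1–3 and 10.70, 10.43, 10.57 and 11.13 in replicas 4–7. The 2 ranges of numbers were thus further apart in both groups than the arrays within either range were from each other. Snord13 was also at 8.46, 7.27 and 7.88 with SAHA alone and at 8.45, 7.63 and 7.78 with Tadalafil alone, all below every value of replicas 4–7, while replicas 1–3 of both groups ran from 7.30 to 8.39. With CM-414 it was at 10.76, 11.12, 11.46 and 10.99, among or above the values of replicas 4–7. Averaged over the vehicle and the SAHA and Tadalafil groups, replicas 4–7 were higher by 2.84 ± 0.20 (SE), a 7.16-fold difference (limma over 24 arrays, adjusted p = 3.81e-08). The exact permutation test of the replica numbers within each group gave p = 0.000816 (two-sided, 1225 arrangements), the smallest it can give. As Snord13 itself had shown this division before, that value was fixed in advance and lends the division no support.

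**Figure D1:**
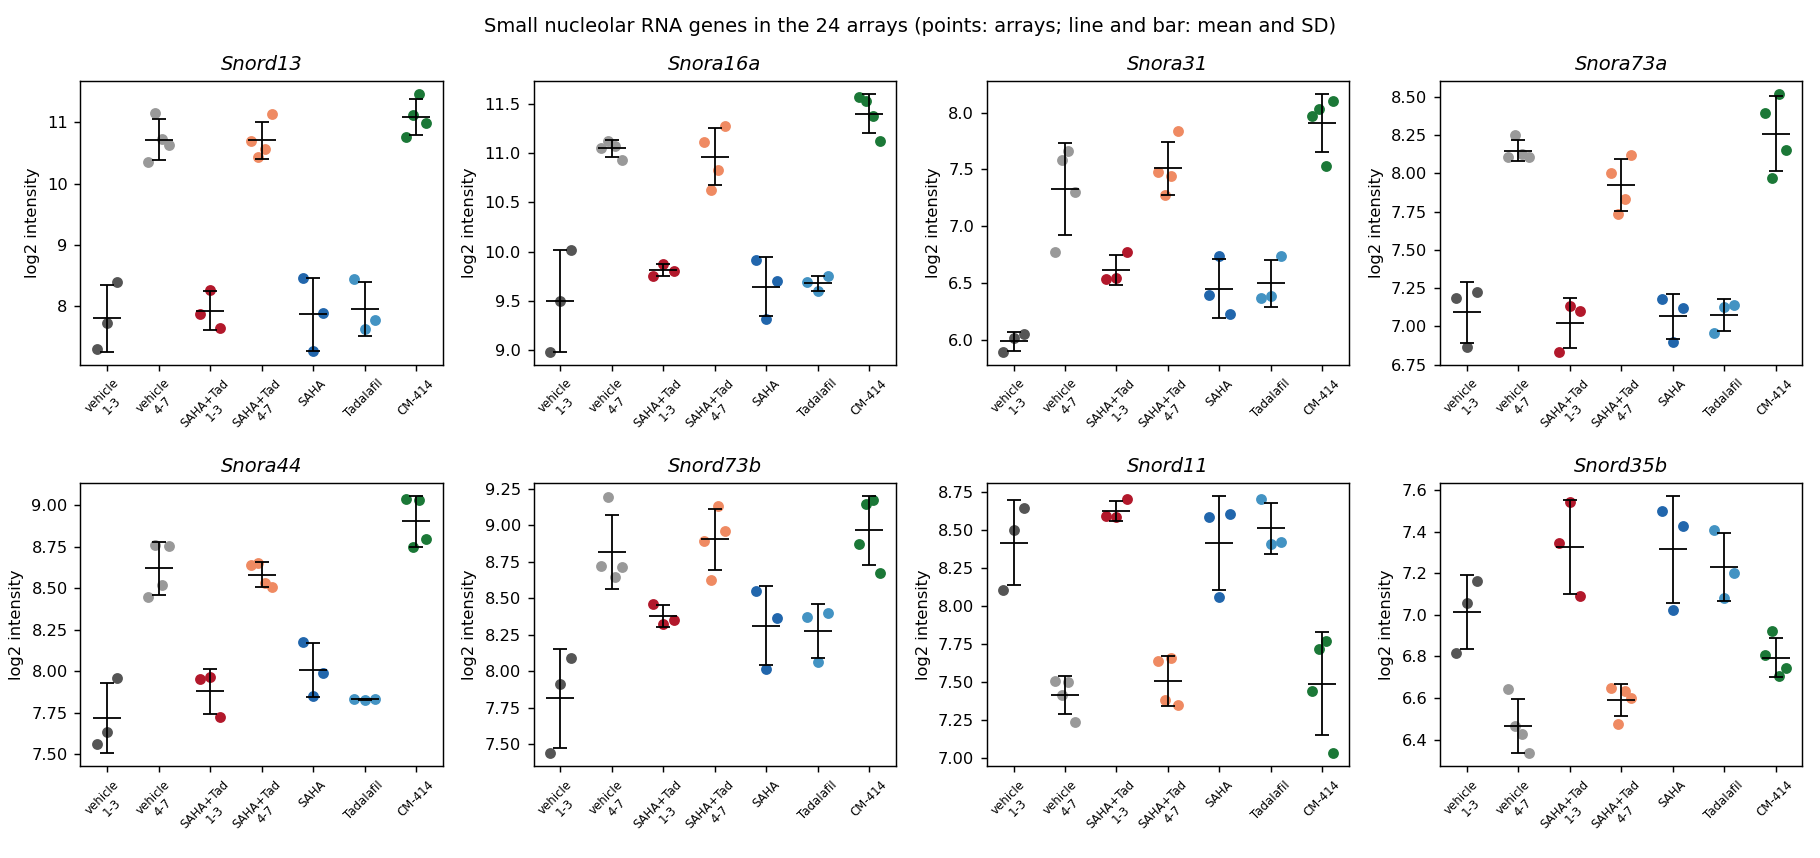
Log2 intensity of 8 small nucleolar RNA genes by array; points are arrays, the horizontal line is the mean and the bar the SD, with vehicle and SAHA+Tad (SAHA and Tadalafil) divided into replicas 1–3 and 4–7 and the vertical axis of each panel starting above 0. Snord13 lies between 7.27 and 8.46 in both sets of replicas 1–3, in SAHA alone and in Tadalafil alone. It lies between 10.35 and 11.46 in both sets of replicas 4–7 and CM-414, and Snord11 and Snord35b run the other way.

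Over the 73 members, 13 were higher and 2 lower in replicas 4–7 than in replicas 1–3 at an adjusted p under 0.05 (limma with Benjamini-Hochberg adjustment over all 19761 genes), against 0.38% of all genes higher and 0.648% lower. The genes whose values were most like those of Snord13 over the 24 arrays were Snora16a (r = 0.97), Snora73a, Snora44 and the ribosomal protein gene Rpl38 (each r = 0.95). Members made up 8 of the 10 genes of smallest p and 14 of the first 100. The median difference over all members was 0.05, against -0.01 over all genes, and 58 members did not pass. At an unadjusted p under 0.05 the count was 33 of 73 members, or 45.2%, against 14.4% of all genes.

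The difference was also computed within each of the 2 groups, which share no arrays. In vehicle, 11 members were higher and 1 lower in replicas 4–7, against 0.0708 and 0.0455% of all genes. A fit of the vehicle arrays alone gave 1 and 0, and 7 were higher without vehicle 1, 6 without vehicle 5 and none lower without vehicle 3. In the SAHA and Tadalafil group, 6 were higher and 2 lower, against 0.0455 and 0.0202%. A fit of that group alone gave 1 and 1, and without replica 1, 2, 3 or 7 there were 1, 3, 2 and 3 higher, with none lower without replica 1 and 1 lower without replica 2, 5 or 7. For the fits of 1 group and those with an array left out, the share of all genes called is not given. Their counts show only how far the member counts moved. In vehicle the arrays of replicas 4–7 all lay above those of replicas 1–3 for 19 members and all below for 4, against 4.93 and 7.34% of all genes, and with SAHA and Tadalafil for 22 and 15, against 6.28 and 7.23%. The value of every array of replicas 4–7 exceeded every array of replicas 1–3 in both groups for 16 members, against 1.14% of all genes, and lay below in both for 3, against 1.85%. The differences in vehicle and in SAHA and Tadalafil correlated across the 73 members (Pearson r = 0.90, Spearman rho = 0.81), and r was 0.85 without Snord13 and 0.29 over all genes tested. These are correlations across genes, which are not independent replicates. The difference between the 2 groups was itself tested as an interaction, and no member and no other gene passed (0.0% of all genes). At an unadjusted p under 0.05 there were 3 members, Snora62, Snord104 and Snora74a, each with a higher value of the difference in vehicle than with SAHA and Tadalafil, or 4.11% of members against 4.35% of genes.

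**Figure D2:**
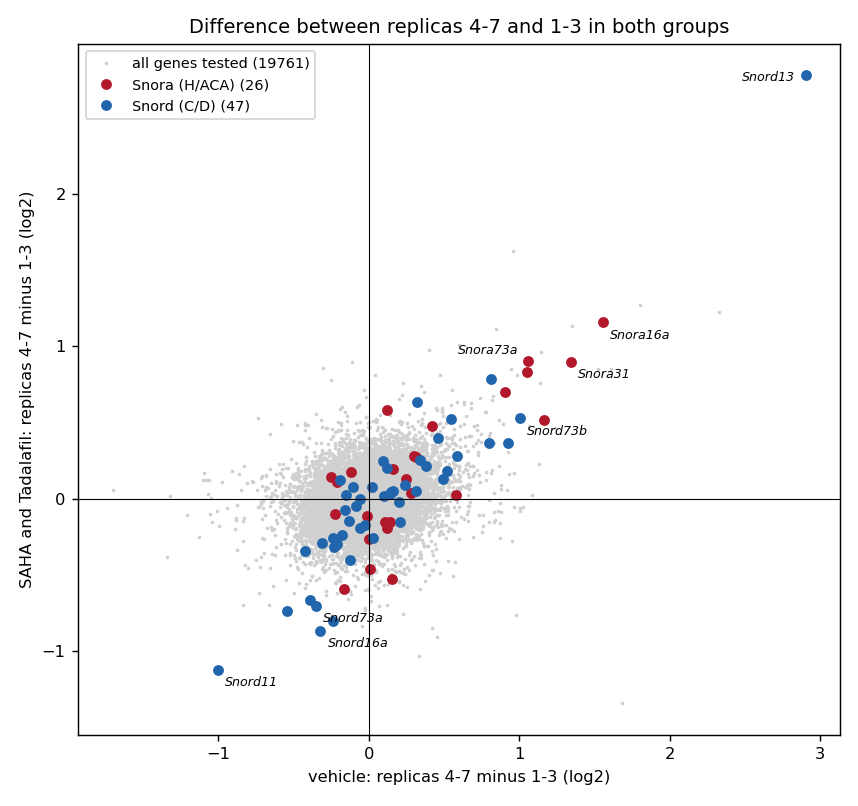
Each point is a gene, with the log2 difference between replicas 4–7 and 1–3 in vehicle on the horizontal axis and in SAHA and Tadalafil on the vertical axis; red points are the 26 Snora genes, blue points the 47 Snord genes and grey points all 19761 genes tested. Snord13 lies at 2.90 and 2.78 and Snord11 at -1.01 and -1.12, and 58 of the 73 small nucleolar RNA genes did not pass the test.

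**Figure D3:**
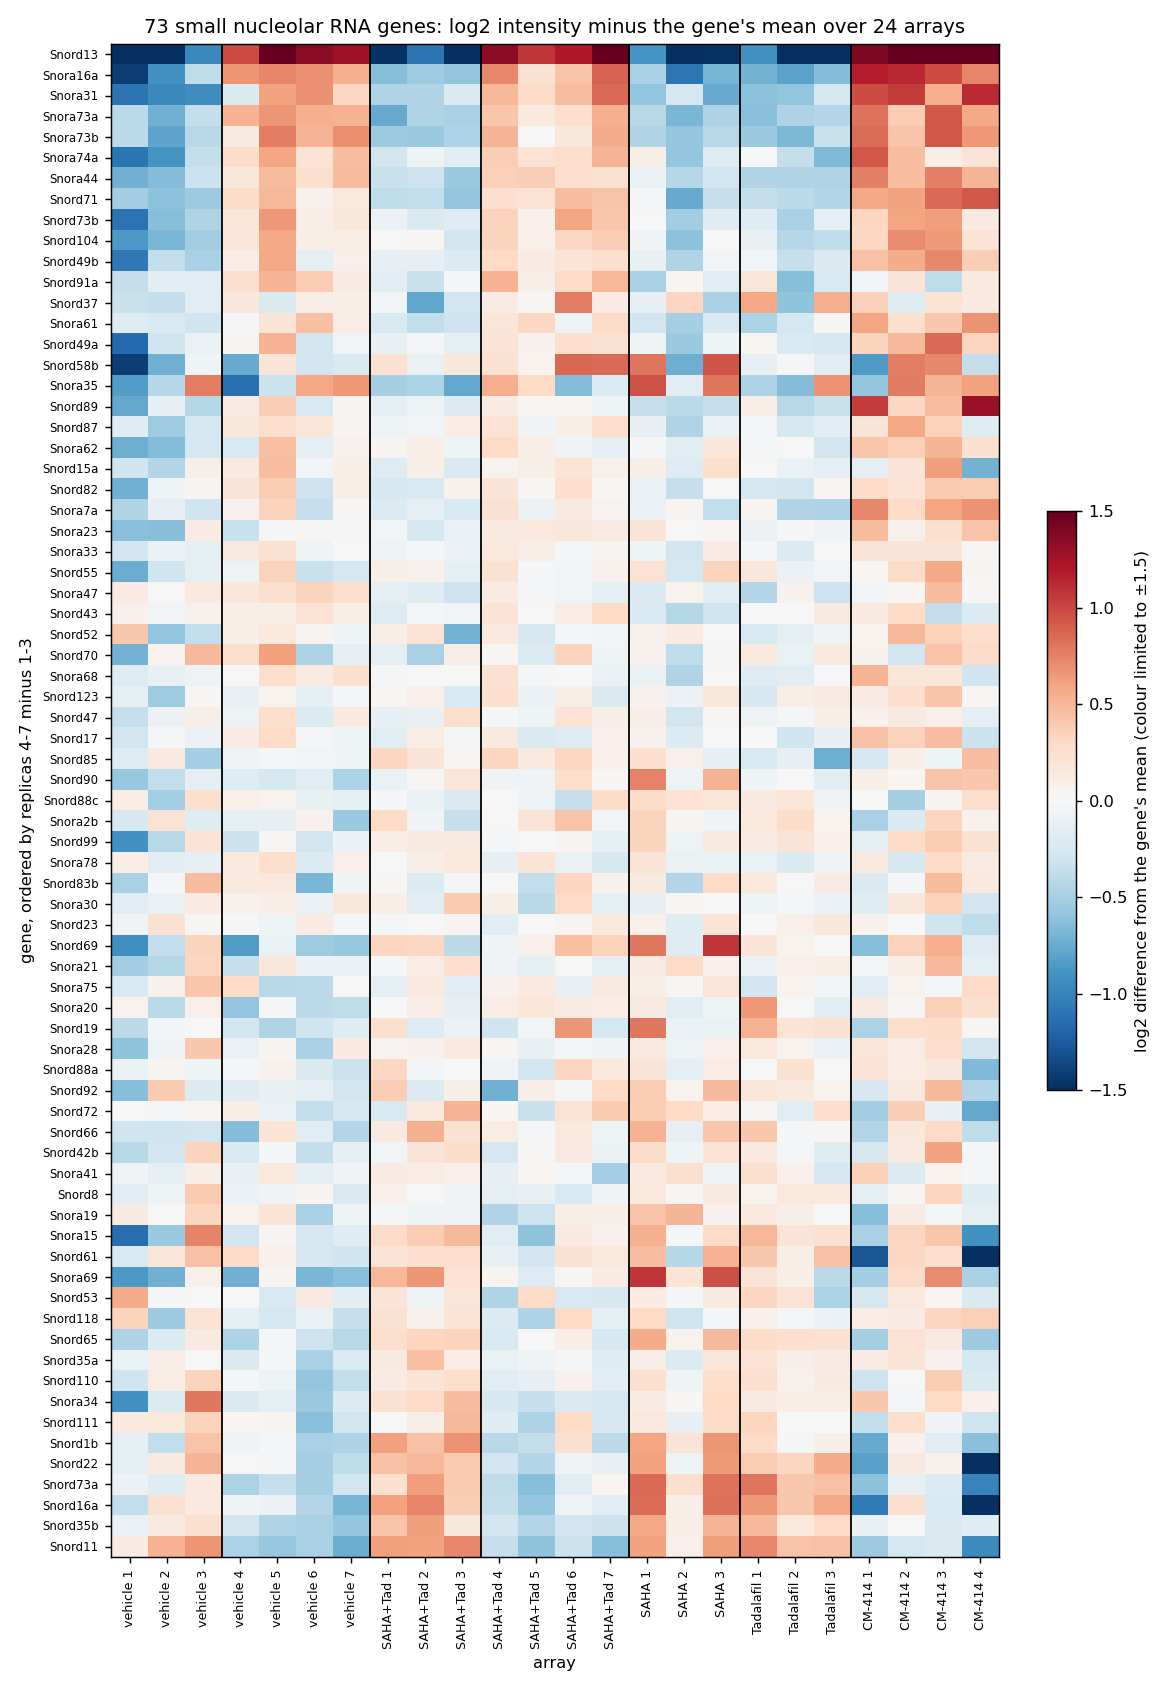
Rows are the 73 small nucleolar RNA genes, ordered by the mean difference between replicas 4–7 and 1–3, and columns are the 24 arrays by group; colour is the log2 intensity minus the mean of the gene over the 24 arrays, limited to ±1.5. Rows at the top are low in both sets of replicas 1–3, in SAHA alone and in Tadalafil alone. They are high in both sets of replicas 4–7 and CM-414, and Snord11 and Snord35b, the lowest rows, run the other way.

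Among H/ACA genes 7 of 26 were higher in replicas 4–7 and none was lower, with a median difference of 0.17. Snora16a was at 9.50 ± 0.52 (SD, n = 3) in vehicle replicas 1–3 and 11.05 ± 0.08 (n = 4) in replicas 4–7, and at 9.81 ± 0.06 and 10.97 ± 0.29 with SAHA and Tadalafil, a mean difference of 1.36 ± 0.13 (SE, limma adjusted p = 4.91e-06). Snora31 was at 5.89, 6.01 and 6.05 in vehicle replicas 1–3 and at 6.77, 7.58, 7.66 and 7.30 in replicas 4–7, and it was higher by 1.12 ± 0.13 (limma adjusted p = 5.61e-05). The ranges of both genes were apart in both groups. Snora73a and Snora73b encode the 2 copies of U17, an H/ACA RNA needed for cutting the precursor of the small subunit rRNA. They were higher by 0.98 ± 0.09 and 0.94 ± 0.11 (limma adjusted p = 3.07e-06 and 5.61e-05), but their sequences are alike and probes may read both. Snora74a rose by 0.84 ± 0.14, Snora44 by 0.80 ± 0.08 and Snora61 by 0.45 ± 0.09 (limma adjusted p = 0.00431, 4.94e-06 and 0.0181). The H/ACA genes of smallest difference were Snora78 at -0.01 ± 0.09, Snora30 at -0.02 ± 0.11, Snora2b at 0.03 ± 0.13 and Snora21 at -0.04 ± 0.12. Snora30 had a mean of 7.55 over the 24 arrays, against 6.98 for Snora31.

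The C/D genes moved in both directions, with 6 of 47 higher, 2 lower and a median difference of 0.02. After Snord13, the rises were 0.80 ± 0.09 in Snord71, 0.77 ± 0.12 in Snord73b, 0.64 ± 0.11 in Snord104, 0.58 ± 0.11 in Snord49b and 0.53 ± 0.12 in Snord91a (limma adjusted p from 6.71e-05 to 0.0328). Snord11 fell: it was at 8.11, 8.50 and 8.65 in vehicle replicas 1–3 and at 7.51, 7.41, 7.50 and 7.23 in replicas 4–7. With SAHA and Tadalafil it was at 8.59, 8.59 and 8.71 against 7.64, 7.38, 7.66 and 7.35. No values overlapped, and the mean difference was -1.07 ± 0.12 (limma adjusted p = 2.94e-05), the largest fall among all genes tested. Snord35b fell by 0.64 ± 0.09 (limma adjusted p = 0.000351). Snord73a was also lower without overlap in both groups, but its difference of -0.53 ± 0.14 missed the threshold (limma adjusted p = 0.0605). The C/D genes of smallest difference were Snord83b at -0.01 ± 0.16, Snord99 at 0.02 ± 0.12, Snord23 at -0.03 ± 0.08 and Snord69 at -0.04 ± 0.22. The median over all Snord genes changed sign, to -0.02, when genes had to exceed 5 in place of 4.

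Members with a role in rRNA maturation other than guiding the 2 usual modifications formed a list of their own. Of 10 such genes listed, 5 had a probe set of their own. Of these, Snord13, Snora73a and Snora73b rose, and the other 2 did not pass. Snord22 (U22), which acts on the small subunit precursor, was at 11.24 ± 0.33 and 10.84 ± 0.26 in vehicle replicas 1–3 and 4–7 and at 11.51 ± 0.04 and 10.85 ± 0.18 with SAHA and Tadalafil (difference -0.53 ± 0.22, limma adjusted p = 0.268). Snord118 (U8), which acts on the large subunit precursor, had a difference of -0.26 ± 0.13 (limma adjusted p = 0.36). Rnu3a, a gene of the U3 small nucleolar RNA under another symbol and hence no member, had a difference of -0.26 ± 0.14 (limma adjusted p = 0.384).

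Annotated lengths (RefSeq, GRCm38.p6) had a median of 118.5 bases in Snora and 68.0 bases in Snord genes. The 7 Snora genes that rose had a median length of 136.0 bases, and across the 26 Snora genes length correlated with the difference at r = 0.47 and rho = 0.40. Across the 47 Snord genes these were 0.01 and -0.11, and the mean level correlated with the difference at r = 0.05 over all 73 members. The part of RNA length in these differences was not tested.

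Other short RNA classes were compared over the same arrays. None of 339 microRNA genes tested was higher in replicas 4–7 and 3 were lower, or 0.885% called, close to the 1.03% of all genes. Of 9 other structured RNA genes tested, among them the 7SK gene Rn7sk, the RNase P RNA gene Rpph1 and the Y RNA gene Rny1, none was called, and Rn7sk was at 14.09 and 14.12 in vehicle replicas 1–3 and 4–7. All 5 Scarna genes, which encode the related guide RNAs of Cajal bodies, had differences above 0, from 0.04 to 0.70, and Scarna2 passed the test (limma adjusted p = 0.000277). Long non-coding RNA genes were called in 0.358% of 1678 cases.

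None of the genes measured for the proteins that bind these RNAs passed the test. Of the C/D proteins Nop56, Nop58, Snu13 and Rrp9, the largest difference was -0.21 ± 0.06 in Nop56 (limma adjusted p = 0.0707). The H/ACA proteins Dkc1, Gar1, Nhp2 and Nop10 had differences between -0.10 and 0.12, none of which passed. Among 12 assembly factors none passed either, and the largest was 0.33 ± 0.09 in Naf1, which loads onto H/ACA particles early (limma adjusted p = 0.0639).

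Choroid plexus markers were higher on average in replicas 4–7, but the ranges overlapped in the SAHA and Tadalafil group. The mean of 7 of them lay between 6.85 and 7.34 in vehicle replicas 1–3 and between 7.50 and 8.92 in replicas 4–7, and between 6.74 and 7.78 against 7.57 and 9.12 with SAHA and Tadalafil, though none of the 7 passed the test. With SAHA the marker means of replicas 1, 2 and 3 were 9.15, 7.76 and 9.38, beside Snord13 at 8.46, 7.27 and 7.88. With Tadalafil they were 6.96, 7.40 and 8.96, beside Snord13 at 8.45, 7.63 and 7.78. With CM-414 they were 7.03, 9.45, 7.31 and 7.10, beside Snord13 at 10.76, 11.12, 11.46 and 10.99. The part of the choroid plexus in the replica difference was not tested. In bulk tissue fewer cells of a type and less RNA per cell cannot be told apart.

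Hosts were taken from the RefSeq annotation of GRCm38.p6 among the genes whose span contains the member, without regard to strand. The shortest of them with a probe set of its own was taken, and the shortest of all only where none had one. A host was found for 70 of 73 members, and none for Snord13, Snord118 and Snord89. For 60 members the host itself was tested, and these hosts were 46 genes. Of the 46 hosts 1 was called (2.17%, against 1.03% of all genes) between replicas 4–7 and 1–3, whereas 12 of the 15 called members had a tested host. That host was 2410006H16Rik, a non-coding RNA gene that was higher by 0.54 ± 0.10 (limma adjusted p = 0.00742). At an unadjusted p under 0.05 there were 9 of the 46 hosts, beside 14.4% of all genes. Of 17 tested genes on a list of known hosts, most of them non-coding, none was called, and their differences ran from -0.29 to 0.18.

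The differences of members inside 1 host were set side by side, without a test between members. Snhg12, a non-coding RNA gene, contains Snora16a, Snora44, Snora61 and Snord99. The 3 H/ACA members rose by 1.36, 0.80 and 0.45, the C/D member Snord99 differed by 0.02 ± 0.12 and the host by 0.05 ± 0.08. Snhg3 differed by -0.12 ± 0.11, in the other direction from its members Snora73a and Snora73b. Rps3a1, a ribosomal protein gene, differed by 0.12 ± 0.08, while its member Snord73b rose by 0.77 and Snord73a had -0.53. Within 2410006H16Rik, Snord49b rose by 0.58 ± 0.11, Snord49a differed by 0.43 ± 0.14 and Snord65 by -0.26 ± 0.12 (limma adjusted p = 0.0143, 0.15 and 0.338). Nop58, itself a C/D protein gene, differed by 0.03 ± 0.07, with Snord11 at -1.07 and Snord70 at 0.16 ± 0.18. Rpl3 was the host with the largest difference, 0.69 ± 0.18 (limma adjusted p = 0.066), yet Snord43 and Snord83b inside it were at 0.17 ± 0.08 and -0.01 ± 0.16.

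**Figure D4:**
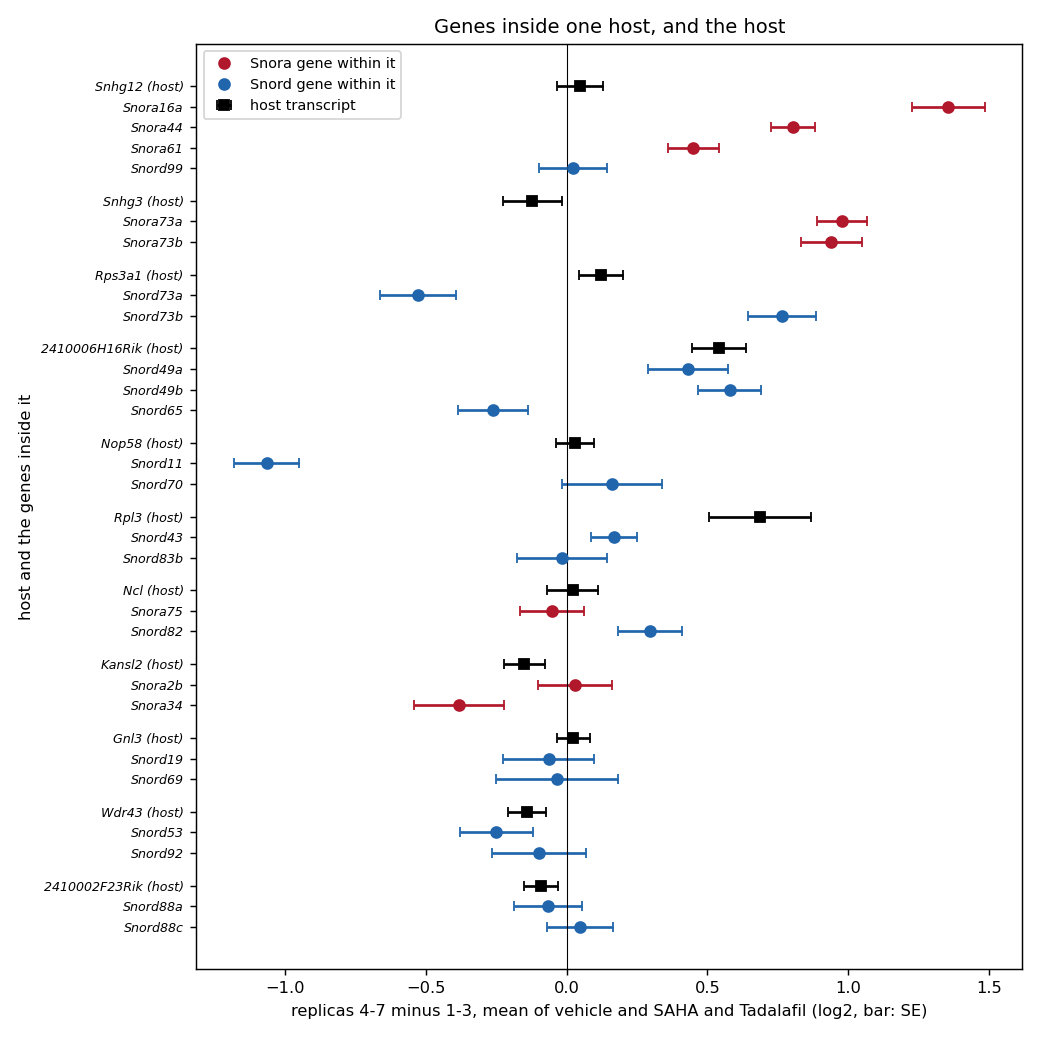
Log2 difference between replicas 4–7 and 1–3, mean of the vehicle and the SAHA and Tadalafil groups, for 11 hosts that contain 2 or more measured members; black squares are hosts, red points Snora and blue points Snord genes inside them, and bars are SE. The 3 Snora genes of Snhg12 lie between 0.45 and 1.36 while Snhg12 itself is at 0.05, and the 2 members of Rps3a1 lie on opposite sides of 0.

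Many host genes of small nucleolar RNAs belong to the class whose transcripts begin with a run of pyrimidines. The first bases of 4 hosts are shown because 2 carry such a run and 2 do not, at least at the annotated start. Each window runs from 15 bases before to 15 bases from the annotated first base on (RefSeq, GRCm38.p6), and capitals mark a run of 5 or more C or T letters that includes the first base.
Snhg12 (chr4:132308663-132308692, + strand): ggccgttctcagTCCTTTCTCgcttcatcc
2410006H16Rik (chr11:62602862-62602891, + strand): tcacgcgccgTCTTTCTCTgcggccatcat
Snhg3 (chr4:132353672-132353701, - strand): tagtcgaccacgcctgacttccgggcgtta
Rps3a1 (chr3:86142654-86142683, - strand): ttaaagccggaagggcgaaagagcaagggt
Both runs are 9 bases long, a length reached at 3.03% of the 32851 annotated starts, and 10.1% have a run of 5 or more. Of these 2 hosts with the run, 2410006H16Rik passed the test between the ranges of replica numbers and Snhg12 did not.

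Member and host were also followed from array to array after removing the mean of each group and replica range. Over the 60 pairs the median correlation of these deviations was 0.18, and 43 of the 60 were above 0. Together with 1 relation to the choroid plexus markers, 61 relations were computed, and 2 passed after Benjamini-Hochberg adjustment, both for Snora35. Snora35 is an H/ACA gene with expression known to be largely limited to the brain, and it lies within Htr2c, the serotonin 2C receptor gene. Its deviations correlated with those of Htr2c at r = 0.79 (permutation p = 0.00014, adjusted 0.00854) and rho = 0.83 (permutation p = 0.00015, adjusted 0.00915), and r was 0.76 without the 2 arrays of most extreme Htr2c. Before removing group means r was 0.78 over 24 arrays. Htr2c is abundant in the choroid plexus, and Snora35 also correlated with the mean of 7 choroid plexus markers, at r = 0.67 (permutation p = 0.00124, adjusted 0.0378) and rho = 0.73 (permutation p = 0.00047, adjusted 0.0143), with r = 0.65 without the 2 most extreme arrays.

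The widest gap in Snora35 lay between 13 arrays at 6.44 to 7.39 and 11 arrays at 7.86 to 8.51. Within these ranges r with Htr2c was 0.25 and 0.30, so the relation rests mainly on the distance between them. Both ranges held arrays of vehicle, Tadalafil, SAHA, SAHA and Tadalafil, and CM-414. In the 11 arrays of the upper range the choroid plexus marker means ran from 6.85 to 9.45. They were 6.85 in vehicle 3, 7.31 in CM-414 3 and 7.10 in CM-414 4, and from 8.33 to 9.45 in the remaining arrays of that range. The part of the choroid plexus was not tested. Among all genes tested, the 6 most like Snora35 over the 24 arrays were Mir1912 (r = 0.92), Mir1264 (r = 0.87), Trpm3 (r = 0.85), Antxr1 and Otx2 (both r = 0.84) and Mir764 (r = 0.83). The 3 whose symbols begin with Mir are microRNA genes annotated within Htr2c, and they were picked out after their values were seen. Mir1298 and Mir448, within the same host, had r = 0.56 and 0.29. Snora35 was the only one of 7 listed brain-enriched or imprinted members with a probe set of its own. It did not differ between replicas 4–7 and 1–3 beyond its spread (0.35 ± 0.32, limma adjusted p = 0.671), and no treatment passed the test for it.

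**Figure D5:**
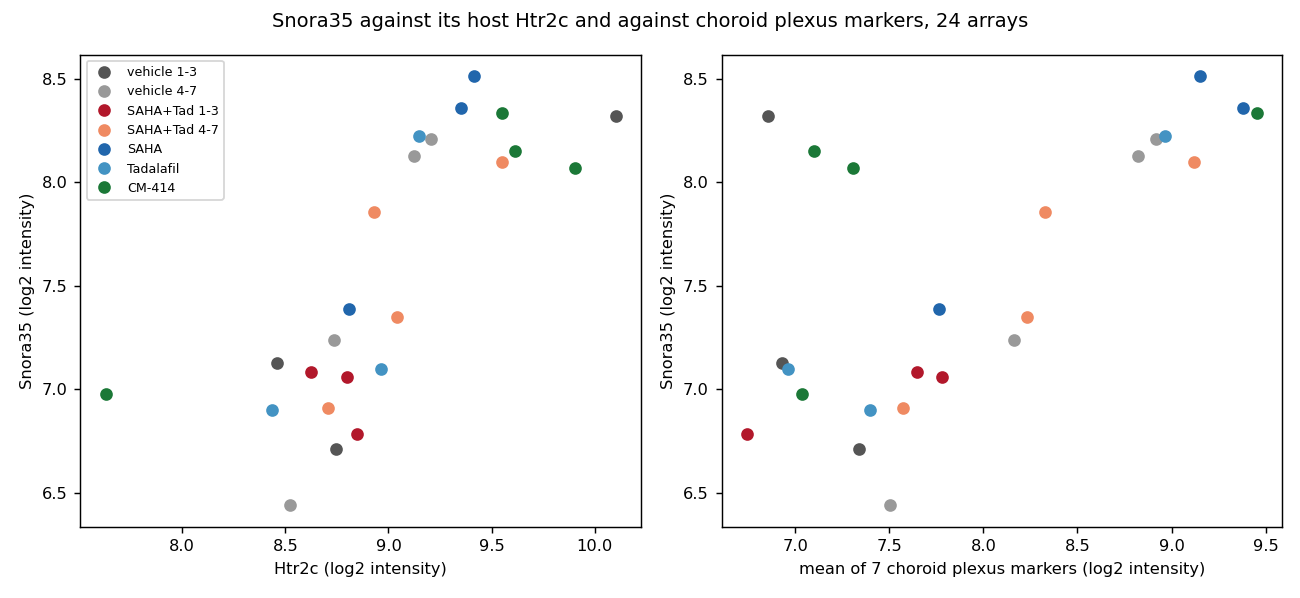
Log2 intensity of Snora35 in the 24 arrays against its host Htr2c on the left and against the mean of 7 choroid plexus markers on the right, coloured by group and replica range. Snora35 rises with both, and 1 vehicle and 2 CM-414 arrays above 8 on the vertical axis have marker means of at most 7.31.

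SAHA and Tadalafil together were compared with vehicle within each range of replica numbers, which keeps the division out of the comparison. No member passed in replicas 1–3 or in replicas 4–7, and no other gene did (0.0% in each). At an unadjusted p under 0.05 there were 17 members in replicas 1–3, or 23.3% against 5.81% of all genes, and 5 in replicas 4–7, or 6.85% against 4.07%. In replicas 1–3 the median difference was 0.16 over the members, against -0.003 over all genes, and 58 of 73 were above 0. Those of smallest p there were Snora62 at 0.57 ± 0.16, Snord104 at 0.60 ± 0.17 and Snora31 at 0.63 ± 0.20 (limma adjusted p = 0.843 for each). Vehicle 1 had the lowest value of all 24 arrays for 25 of the 73 members and enters that comparison as 1 of 3 controls. The share of all genes lowest in vehicle 1 is not given here, and the part of that array in the comparison was not tested. In replicas 4–7 the median difference was 0.05, and those of smallest p were Snora20 at 0.48 ± 0.15, Snord69 at 0.71 ± 0.28 and Snora47 at -0.27 ± 0.11 (limma adjusted p = 1 for each). Pooled over all 14 arrays no member passed, and the 3 of smallest p were Snora69 at 0.69 ± 0.20, Snord90 at 0.35 ± 0.10 and Snora47 at -0.29 ± 0.09 (limma adjusted p = 0.992 for each). At an unadjusted p under 0.05 there were 11 members in the pooled comparison, or 15.1% against 4.35% of all genes.

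SAHA alone and Tadalafil alone gave different counts against the 2 ranges of vehicle arrays, and the labels do not tie their replicas to either. Against vehicle replicas 1–3 no member passed with SAHA or with Tadalafil (0.00506% of all genes called with SAHA, 0.0% with Tadalafil), and at an unadjusted p under 0.05 there were 21 and 11 members, or 28.8 and 15.1% against 8.31 and 5.23% of all genes. Against vehicle replicas 4–7, 3 members were higher and 6 lower with SAHA (0.106 and 0.111% of all genes), and 2 higher and 5 lower with Tadalafil (0.0607% each way). The count higher with SAHA was 1 without SAHA 1 or SAHA 3, 5 without SAHA 2 and 9 with array weights. With Tadalafil 1 was higher without Tadalafil 1, and array weights gave 4 higher and 11 lower. Shares of all genes called in these settings are not given, so these counts show only how far the member counts moved. The largest of these were in Snord13, at -2.84 ± 0.28 with SAHA and -2.76 ± 0.28 with Tadalafil (limma adjusted p = 2.49e-05 and 4.21e-05). Snora16a was at -1.41 and -1.37, Snora73a at -1.08 and -1.07 and Snora73b at -1.01 and -1.05, while Snord11 was at 1.01 and 1.10. Against vehicle replicas 1–3 the differences of these 5 genes lay between -0.03 and 0.18 and none passed, so their calls depended on which vehicle arrays served as controls. Over all 7 vehicle arrays no member passed with either drug (0.0101% of all genes with SAHA, 0.0% with Tadalafil), and 17 and 13 had an unadjusted p under 0.05, or 23.3 and 17.8% against 8.74 and 5.45% of all genes.

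The 3 members of smallest p for SAHA against all vehicle arrays were Snord90, Snora69 and Snord73a. Snord90, a C/D gene, was at 6.02, 5.20 and 5.80 with SAHA and between 4.71 and 5.13 in the 7 vehicle arrays, so the groups did not overlap. The difference was 0.71 ± 0.13 against all vehicle arrays (limma adjusted p = 0.0695) and 0.76 ± 0.16 against replicas 1–3 (limma adjusted p = 0.309). Snora69, an H/ACA gene within the ribosomal protein gene Rpl39, was at 7.41, 6.53 and 7.31 with SAHA and between 5.48 and 6.42 in vehicle, a difference of 1.24 ± 0.26 (limma adjusted p = 0.15). Snord73a was at 7.73, 7.13 and 7.69 with SAHA, at 7.68, 7.28 and 7.31 with Tadalafil and between 6.38 and 7.02 in vehicle, with pooled differences of 0.88 ± 0.22 and 0.79 ± 0.22 (limma adjusted p = 0.304 and 0.742). All values of these genes with SAHA lay above all values with vehicle, but none passed the test in the pooled comparison. The genes were picked by their p in this same comparison, so the lack of overlap adds no support. The share of all genes without overlap between SAHA and vehicle is not given here. With unequal weights for the arrays Snord90, Snora69 and Snord69 passed for SAHA. Tadalafil had its smallest pooled p in Snora47, at -0.41 ± 0.11, and in Snord73a and Snord65, the last of these at 0.50 ± 0.17 (limma adjusted p = 0.742, 0.742 and 0.903).

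With CM-414 the choice of vehicle arrays decided the result again. Against vehicle replicas 1–3, 19 members were higher and 1 lower (0.572 and 1.33% of all genes, 1.9% either way), with Snord13 at 3.27 ± 0.28, Snora31 at 1.92 ± 0.18, Snora16a at 1.91 ± 0.18, Snord71 at 1.31 ± 0.13, Snora73b at 1.24 ± 0.15 and Snord89 at 1.22 ± 0.19 (limma adjusted p from 1.88e-06 to 0.00208). The 1 member that fell was Snord11, at -0.93 ± 0.16 (limma adjusted p = 0.006). In a fit of only the arrays compared, 3 members were higher and none lower, and the share of all genes called in that fit is not given. Against vehicle replicas 4–7 no member and no other gene passed (0.0% of all genes), and 20 members had an unadjusted p under 0.05, or 27.4% against 9.86% of genes. Snord13 was then at 0.37 ± 0.26 (limma adjusted p = 0.667). Pooled over all vehicle arrays no member passed (0.00506% of all genes) and 26 had an unadjusted p under 0.05, or 35.6% against 11.9% of all genes. With the replicate number as a block 15 were higher and 1 lower, and with a term for replicas 4–7 19 were higher and 1 lower. The CM-414 arrays are numbered 1 to 4, so such blocks set them mostly beside arrays of replicas 1–3. The counts with the term equal those against vehicle replicas 1–3. Neither fit is thus separate evidence of a CM-414 difference, and no share of all genes is given for them.

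The 3 members of smallest p against vehicle replicas 4–7 were Snord71, Snord89 and Snora7a. Snord89 was at 9.79, 9.06, 9.20 and 10.04 with CM-414, at 7.97, 8.62 and 8.31 in vehicle replicas 1–3 and at 8.86, 9.11, 8.52 and 8.78 in replicas 4–7. It overlapped with replicas 4–7 only in CM-414 2, and the difference was 0.70 ± 0.18 (limma adjusted p = 0.312). Snora7a, within the ribosomal protein gene Rpl32, was at 7.72, 7.29, 7.60 and 7.68 with CM-414 and between 6.66 and 7.35 in vehicle replicas 4–7, overlapping in CM-414 2, a difference of 0.55 ± 0.14 (limma adjusted p = 0.316). Snord71 was at 9.14, 9.17, 9.42 and 9.50 with CM-414 and between 8.62 and 9.06 in vehicle replicas 4–7, without overlap, a difference of 0.50 ± 0.12 (limma adjusted p = 0.312). These 3 genes were picked by their p in this same comparison, so little or no overlap adds no support. How many of all genes had no overlap between CM-414 and vehicle replicas 4–7 is not given here.

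The CM-414 arrays also differed among themselves. Snord22 was at 10.25, 11.20, 11.13 and 9.21, Snord61 at 8.99, 10.58, 10.52 and 8.58 and Snord16a at 9.39, 10.69, 10.22 and 8.89, so CM-414 1 and 4 were low in all 3 of these C/D genes, which were picked out after their values were seen. CM-414 4 held the lowest value of all 24 arrays for 11 members and CM-414 3 the highest for 17. The shares of all genes at their extremes in these arrays are not given here.

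By class, the median over the Snora genes was 7.01 ± 0.07 (SD, n = 3) in vehicle replicas 1–3, 7.65 ± 0.23 (n = 4) in replicas 4–7, 6.96 ± 0.07 and 7.59 ± 0.15 in the same ranges with SAHA and Tadalafil, 7.16 ± 0.17 with SAHA, 7.05 ± 0.14 with Tadalafil (n = 3 each), and, in the CM-414 group, 7.93 ± 0.05 (n = 4). The lowest array median of vehicle replicas 4–7, 7.35, lay above all arrays given SAHA only and all arrays given Tadalafil only. The array means over the same genes were less apart. Vehicle 4 had a mean of 7.66, below SAHA 1 at 7.78 and SAHA 3 at 7.69. It lay above SAHA 2, at 7.56, and above all Tadalafil arrays, of which the highest was at 7.61. Vehicle 3 had a mean of 7.73, above vehicle 4 and vehicle 6, the latter at 7.72. The gap between array medians therefore does not show that the class moved as a whole. The median over the Snord genes was 7.93 ± 0.30, 8.11 ± 0.21, 8.28 ± 0.09, 8.29 ± 0.25, 8.26 ± 0.25, 8.17 ± 0.14 and 8.29 ± 0.43 in the same order, and the groups overlapped. Pooled against vehicle, the median differences of Snora and Snord genes were 0.06 and 0.14 with SAHA and Tadalafil, 0.06 and 0.15 with SAHA, -0.05 and 0.14 with Tadalafil and, for CM-414, 0.41 and 0.16, against -0.0087 to -0.0005 over all genes.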

How the data were processed

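The authors deposited log2 values of 41345 probe sets on 24 Affymetrix Mouse Gene 2.0 ST arrays after RMA background correction and normalization (version not given in the sources used here). RNA had been extracted with TRIzol and a silica column, then amplified and labelled. Gene names came from the platform annotation, and gene types, lengths and hosts from RefSeq (GRCm38.p6). Non-coding probe sets, which the study's methods left out, were kept. Groups were compared in 1 limma 3.58.1 fit (R 4.3.3) with vehicle and SAHA and Tadalafil divided by replica number, and in a second fit of the 5 groups. Probe sets had to exceed 4 in at least 2 arrays of each group, which left 19761 genes, and Benjamini-Hochberg adjusted p-values under 0.05 counted as calls. The study's methods describe 3 animals per group and array batches without assigning arrays to them, and no source used here ties replica numbers to a litter or day. The number of arrays limits the precision. Correlations used 100000 permutations within groups and replica ranges (numpy 2.4.6). The fit was tested on simulated data. Members and lists were chosen with earlier results of these data known. Genes named are Snord13, listed members, up to 8 called rises and up to 4 called falls of each class between replica ranges, 4 of each class with the smallest difference, up to 6 called members (otherwise 3 of smallest p) of each other comparison, and hosts of these. Falls between replica ranges that were not called were not named by this rule. Exceptions are stated. Alternatives were other filters, probe set means, all probe sets, median centring, trended variance, array weights, fewer groups, blocks and arrays left out.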

Additional observations from a re-analysis of the deposited data

Results flagged for a closer look

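Among 105 sets of values (35 members in each of vehicle, SAHA and Tadalafil, and CM-414), 1 array lay far from the others of its group by Dixon's criterion. Chance meets it in about 1 set in 20 where the values of a set form 1 normal spread. The vehicle and the SAHA and Tadalafil sets held both ranges of replica numbers. For members that differ between the ranges that rate does not hold, and 1 outlying array is harder to flag. Snora47, an H/ACA gene within Zbed3, was at 8.56 in CM-414 3 and between 8.05 and 8.11 in the other 3 CM-414 arrays, so that the gap was 0.868 of the range. CM-414 3 also had the highest thalamus marker mean, 9.41, and the part of that in this value was not tested. No member differed between the vehicle and the SAHA and Tadalafil groups in its replica difference by the interaction test.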

How the results depend on the processing

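Replicas 4–7 against 1–3 gave 13 members higher and 2 lower, and all 15 calls remained under 8 of 9 alternatives that kept the arrays or left out vehicle 3 and CM-414 3 together; a filter at 5 lost Snord91a. Leaving out 1 array at a time gave 11 to 14 higher and 2 to 3 lower, and lost only Snord91a (without vehicle 1, 2, 5 or 6 or SAHA and Tadalafil 1, 2, 3, 4 or 7) and Snora61 (without SAHA and Tadalafil 2 or 3). Array weights and a fit of only the groups compared each gave 5 lower. In vehicle alone 1 was higher and 0 lower in a fit of that group only, 2 were lower with array weights, and arrays left out gave 6 to 11 and 0 to 1. In SAHA and Tadalafil alone the fit of that group gave 1 higher and 1 lower, and arrays left out gave 1 to 7 (1 without replica 1) and 0 to 2.
CM-414 against vehicle 1–3 gave 3 higher and 0 lower in a fit of these groups only, and 15 to 24 and 1 to 2 with arrays left out. Against vehicle 4–7 it gave 0 to 1 higher. Pooled, it gave 1 with median centring, 2 with a trended robust variance and 0 to 4 with arrays left out. A term for replicas 4–7 gave 19 higher and 1 lower, the counts of the main fit against vehicle 1–3. Tadalafil against vehicle 4–7 gave 4 higher and 11 lower with array weights, and 1 to 3 and 5 to 6 with arrays left out. SAHA against vehicle 4–7 gave 9 higher with array weights, 5 without vehicle 3 and CM-414 3, and 1 to 5 higher and 4 to 7 lower with arrays left out. SAHA pooled gave 3 higher with array weights, 2 without these 2 arrays and 0 to 1 with arrays left out, and against vehicle 1–3 it gave 1 without these 2 arrays and 0 to 1 with arrays left out. Shares of all genes called under these alternatives are not given, so the counts show only how far the member counts moved. The cause of these changes was not tested.
Same-numbered arrays of vehicle and SAHA and Tadalafil did not deviate together in every pair (r from -0.06 to 0.19, over 0.1 in 4 of 7), nor did those of vehicle and CM-414 (0.09, 0.18, 0.70 and 0.01), so pairing by number was not taken as given. These deviations were from group means. From means within the replica ranges r was 0.31, 0.33, 0.68 and -0.04 for CM-414, higher in the first 2 pairs. For SAHA and Tadalafil it then ran from -0.11 to 0.15. Vehicle 3 and CM-414 3, the pair at 0.70, are the 2 arrays high in thalamus markers. With the replicate number as a block CM-414, numbered 1 to 4 and so set mostly beside replicas 1–3, gave 15 higher and 1 lower. No other treatment gave a call in that fit.
The median of the Snord genes went to -0.0228 with the filter at 5 and ran from -0.0588 to 0.106 with arrays left out, and that of the Snora genes ran from 0.138 to 0.185. Among named members, signs turned only near 0. With array weights Snora20 went to 0.0085, Snora21 to 0.0513, Snora2b to -0.0359, Snora30 to 0.0078, Snord69 to 0.045 and Snord83b to 0.0328. Without vehicle 3 and CM-414 3 Snora21 went to 0.0967, Snora30 to 0.0224, Snord69 to 0.127 and Snord83b to 0.106. With single arrays left out the ranges were -0.1152 to 0.0967 for Snora21, -0.0473 to 0.114 for Snora2b, -0.0888 to 0.0486 for Snora30, -0.0526 to 0.0388 for Snora78, -0.0588 to 0.0091 for Snord23, -0.1853 to 0.127 for Snord69, -0.1335 to 0.106 for Snord83b and -0.1105 to 0.168 for Snord99.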
